A study of Homo sapiens with 16 samples.

Results

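CD69 and 9 immediate early genes were followed through 16 RNA-seq libraries of T-ALL (T-lineage acute lymphoblastic leukemia) cells in which USP7 was knocked down. The 10 genes, CD69, FOS, FOSB, JUN, JUNB, EGR1, EGR2, EGR3, NR4A1 and DUSP2, were chosen by symbol as activation-induced genes, out of 57820 rows of the count table, of which 39330 held at least 1 count. CD69 was selected on its changes of opposite sign in the 2 lines against the scrambled control, so the levels of the 10 genes in USP7 shRNA cells against either control are given as a description, with no test. The lines were Jurkat and HSB-2, both established human T-ALL lines that the labels call TAL1+. Each line gave 4 groups of 2 libraries, namely wild-type, scrambled control, USP7 shRNA-4057 and USP7 shRNA-4058. The 2 hairpins target different exons of USP7, a deubiquitylating enzyme, and the study asked whether partial loss of USP7 lowers the transcription of genes driven by E-proteins in TAL1+ cells. Per the methods, cells received lentivirus and were then sorted for GFP or selected with puromycin, and which of the 2 applied to which library was not stated. The sample labels call the scrambled control an siRNA and the design text calls it an shRNA. The age of the cultures and whether the libraries of a group came from separate transductions were not given, so the p-values below measure the spread between these libraries, which may be technical. Where the 2 hairpins were pooled, that spread also held the difference between them.

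USP7 itself was at 396 and 386 CPM (counts relative to the total of a library, scaled with edgeR's TMM factors) in wild-type Jurkat and at 384 and 387 CPM in scrambled Jurkat. It was at 140 and 145 CPM with shRNA-4057 and at 244 and 241 CPM with shRNA-4058, so in Jurkat shRNA-4057 left less USP7 mRNA. In HSB-2, USP7 was at 237 and 243 CPM in wild-type, 227 and 220 CPM in scrambled, 144 and 149 CPM with shRNA-4057 and 162 and 156 CPM with shRNA-4058. There too the shRNA-4057 libraries were below the shRNA-4058 libraries. In both lines the shRNA libraries were below all control libraries for USP7. Library totals were 86.9 to 110 M (mega) counts in Jurkat and 76.6 to 235 M counts in HSB-2, and the 10 most abundant genes took 14.9% to 17.0% of the counts in scrambled Jurkat against 8.16% to 12.1% in the other groups. Of the T-lineage markers, CD3E, CD3D, CD7 and LCK lay between 96.9 and 1800 CPM in all libraries, and CD2 was between 0.785 and 4.96 CPM in HSB-2. Of 2 B-cell markers, MS4A1 was at most at 0.330 CPM in Jurkat and at 0 in HSB-2. The other, CD79A, lay between 21.5 and 64.2 CPM in Jurkat and was at most at 1.57 CPM in HSB-2. The sum of both in Jurkat was 61.1 to 64.3 CPM in scrambled, 35.2 to 35.9 CPM in wild-type and 21.8 to 22.8 CPM in shRNA libraries, an order shared with CD69 in that line, and its part in the levels of CD69 was not tested. The summed T-lineage markers moved as well, from 1989 to 2040 CPM in scrambled Jurkat to 1416 to 1493 CPM in shRNA Jurkat, and from 1916 to 1997 CPM in scrambled HSB-2 to 2500 to 2885 CPM in shRNA HSB-2. The summed 4 myeloid markers were at most at 0.924 CPM, and of the 3 epithelial and stromal markers COL1A2 was at 0 in all libraries and EPCAM at most at 0.00788 CPM, while COL1A1 lay between 4.37 and 11.3 CPM.

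Immediate early genes are transcribed within minutes of a signal, without new protein synthesis, because the factors that switch them on are already present and only need to be activated. In T cells the signal usually starts at the T-cell receptor and passes through RAS, the RAF, MEK and ERK kinases, protein kinase C and calcium-dependent calcineurin. ERK activates ternary complex factors such as ELK1, which sit beside serum response factor on CArG boxes of FOS and EGR promoters, and the proteins made from these genes drive a second wave of genes while DUSP phosphatases and other inhibitors shut the signal down. CD69 is a C-type lectin that appears on the T-cell surface early after activation, and it keeps activated cells in lymphoid tissue by pairing with the sphingosine 1-phosphate receptor S1PR1.

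The promoters of EGR1 and EGR2 are shown because these genes are textbook targets of serum response factor. RefSeq promoter windows on GRCh38.p14 (250 bases before to 50 bases after the annotated start, 300 bases each) were found for 8 of the 10 genes, in 11 windows, and no entry was found for CD69 and EGR3. Capitals mark CArG boxes, the core of the serum response element, found on either strand.
EGR1 (chr5:138465229-138465528, plus strand): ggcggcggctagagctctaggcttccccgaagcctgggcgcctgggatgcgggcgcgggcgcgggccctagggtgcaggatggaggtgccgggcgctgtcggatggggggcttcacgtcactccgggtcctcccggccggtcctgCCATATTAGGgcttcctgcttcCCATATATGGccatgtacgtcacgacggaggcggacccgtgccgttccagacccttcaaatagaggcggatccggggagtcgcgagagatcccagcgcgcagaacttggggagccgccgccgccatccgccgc
EGR2 (chr10:62816317-62816616, minus strand): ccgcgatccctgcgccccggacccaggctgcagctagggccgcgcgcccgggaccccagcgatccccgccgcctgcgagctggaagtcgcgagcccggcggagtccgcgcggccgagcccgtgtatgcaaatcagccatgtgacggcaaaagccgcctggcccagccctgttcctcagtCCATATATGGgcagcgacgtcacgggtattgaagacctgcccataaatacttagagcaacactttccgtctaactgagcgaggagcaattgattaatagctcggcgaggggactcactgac

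The EGR1 window held 2 CArG boxes, at -105 to -96 and -83 to -74 from the start, and this EGR2 window held 1, at -71 to -62. The windows of the other 6 genes with an entry held none, which says only that these letters are not in those windows, and 1.29% of 35116 promoter windows of the same length held at least 1. The AP-1 site TGANTCA (in 7.71% of all windows), the cyclic AMP response element TGACGTCA (1.85%), the EGR site GCGTGGGCG (0.795%), the NR4A site AAAGGTCA (1.22%) and the E-box CAGGTG (20.6%) were found in none of the 11 windows, searched on both strands. The E-box CAGCTG (17.9%) was found in 1, that of another EGR2 start, at -50 to -45. These matches are descriptions of the letters in the windows, and no binding was measured here.

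CD69 (ENSG00000110848.4, GRCh37 chr12:9905082-9913497, minus strand) had its highest level in scrambled cells in Jurkat and its lowest in scrambled cells in HSB-2. In Jurkat, CD69 was at 26.9 and 26 CPM in wild-type, 58.5 and 50.7 CPM in scrambled, 19.5 and 21.0 CPM with shRNA-4057 and 20.5 and 19.3 CPM with shRNA-4058. All 4 shRNA libraries were below both controls, and the 2 controls did not overlap each other. In HSB-2, CD69 was at 94.2 and 101 CPM in wild-type, 26.7 and 25.2 CPM in scrambled, 109 and 116 CPM with shRNA-4057 and 141 and 131 CPM with shRNA-4058. There the shRNA libraries were above both controls, with a wider gap to the scrambled cells. The log2 difference of shRNA from scrambled was -1.42 ± 0.08 (SE, 4 against 2 libraries) in Jurkat and 2.26 ± 0.11 in HSB-2. Against wild-type it was -0.37 ± 0.07 in Jurkat and 0.35 ± 0.10 in HSB-2. In each line the sign was the same against both controls and the size was larger against scrambled. Beside these bulk values, fewer cells with CD69 and less CD69 RNA per cell cannot be told apart, which holds for all genes here. Over the 8 groups CD69 ran from HSB-2 with shRNA-4058 down through shRNA-4057 and wild-type of that line, scrambled Jurkat, wild-type Jurkat and scrambled HSB-2 to Jurkat with shRNA-4057 and shRNA-4058. Wild-type Jurkat and scrambled HSB-2 overlapped, as did the 2 hairpins in Jurkat, and the other neighbours in that order did not.

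**Figure D1:**
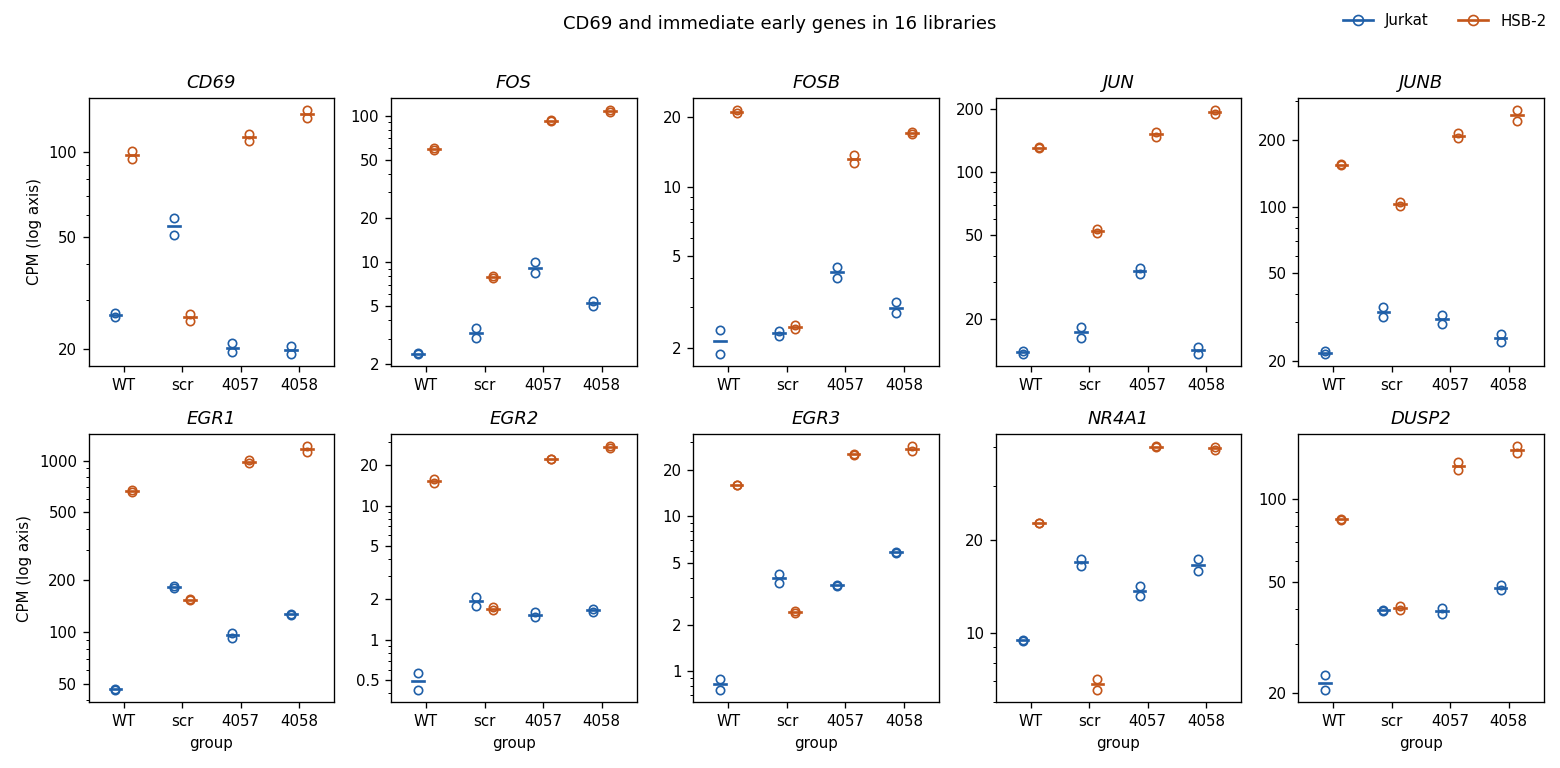
Level of each gene (CPM, log axis) in wild-type (WT), scrambled (scr), shRNA-4057 and shRNA-4058 cells. Circles are libraries and bars the mean of 2. In HSB-2 the scrambled pair is the lowest of the 4 pairs in all 10 panels, and in Jurkat CD69 is highest in the scrambled pair, at 58.5 and 50.7 CPM.

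FOS (ENSG00000170345.5, GRCh37 chr14:75745529-75748933, plus strand) encodes the partner that forms the transcription factor AP-1 with JUN proteins. In Jurkat, FOS was low, at 2.39 and 2.36 CPM in wild-type, 3.55 and 3.05 CPM in scrambled, 9.96 and 8.37 CPM with shRNA-4057 and 5.02 and 5.41 CPM with shRNA-4058. The lowest of these libraries still held 212 reads of FOS, and the shRNA libraries were above both controls. In HSB-2, FOS was at 58.6 and 59.7 CPM in wild-type, 7.75 and 8.05 CPM in scrambled, 92.7 and 91.5 CPM with shRNA-4057 and 106 and 109 CPM with shRNA-4058. The scrambled cells of HSB-2 were thus near the Jurkat range and far below the other HSB-2 cells. FOS was the only member of the 10 above both controls in all shRNA libraries of both lines.

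FOSB (ENSG00000125740.9, GRCh37 chr19:45971253-45978437, plus strand) encodes a second AP-1 partner of the FOS family, and ERCC1 overlaps it on the other strand. In Jurkat, FOSB was at 1.88 and 2.40 CPM in wild-type, 2.38 and 2.24 CPM in scrambled, 4.48 and 4.02 CPM with shRNA-4057 and 2.83 and 3.15 CPM with shRNA-4058. The 2 controls overlapped, and the shRNA libraries were above them. In HSB-2, FOSB was at 21.5 and 20.9 CPM in wild-type, 2.52 and 2.41 CPM in scrambled, 13.7 and 12.7 CPM with shRNA-4057 and 17.3 and 16.9 CPM with shRNA-4058. It was the only member of the 10 whose HSB-2 shRNA libraries all lay between the controls, above scrambled and below wild-type. Because the strand setting of the counts was not stated, reads of FOSB and ERCC1 in the shared stretch cannot be told apart.

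JUN (ENSG00000177606.5, GRCh37 chr1:59242517-59249720, minus strand) and JUNB (ENSG00000171223.4, GRCh37 chr19:12902300-12904129, plus strand) encode the JUN side of AP-1, and JUNB is overlapped by HOOK2 on the other strand. In Jurkat, JUN was at 13.7 and 14.1 CPM in wild-type, 18.3 and 16.4 CPM in scrambled, 35.1 and 32.9 CPM with shRNA-4057 and 14.8 and 13.7 CPM with shRNA-4058. Only shRNA-4057 stood above the controls. In HSB-2, JUN was at 129 and 131 CPM in wild-type, 51.2 and 53.5 CPM in scrambled, 155 and 147 CPM with shRNA-4057 and 189 and 197 CPM with shRNA-4058. Both hairpins were above both controls there. In Jurkat, JUNB was at 21.5 and 22.1 CPM in wild-type, 31.7 and 35.1 CPM in scrambled, 32.4 and 29.2 CPM with shRNA-4057 and 24.4 and 26.4 CPM with shRNA-4058. Scrambled cells and shRNA-4057 overlapped, and wild-type was the lowest. In HSB-2, JUNB was at 156 and 155 CPM in wild-type, 100.2 and 105 CPM in scrambled, 216 and 204 CPM with shRNA-4057 and 246 and 274 CPM with shRNA-4058, so that its highest library over its lowest gave the smallest ratio of the 10 genes in that line.

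EGR1 (ENSG00000120738.7, GRCh37 chr5:137801168-137804992, plus strand) encodes a zinc-finger transcription factor, and its promoter is the one with 2 CArG boxes shown above. In Jurkat, EGR1 was at 45.9 and 46.7 CPM in wild-type, 180.1 and 185 CPM in scrambled, 98.5 and 92.8 CPM with shRNA-4057 and 126 and 128 CPM with shRNA-4058. The shRNA libraries lay between the controls, above wild-type and below scrambled, with no overlap. In HSB-2, EGR1 was at 655 and 671 CPM in wild-type, 155 and 155 CPM in scrambled, 1009 and 965 CPM with shRNA-4057 and 1117 and 1213 CPM with shRNA-4058. Here the shRNA libraries were above both controls, and in scrambled cells HSB-2 was below Jurkat.

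EGR2 (ENSG00000122877.9, GRCh37 chr10:64571756-64578927, minus strand) and EGR3 (ENSG00000179388.8) encode related factors that restrain T-cell responses, and in the annotation a long noncoding RNA overlaps each. In Jurkat, EGR2 was at 0.564 and 0.422 CPM in wild-type, 1.80 and 2.07 CPM in scrambled, 1.48 and 1.61 CPM with shRNA-4057 and 1.62 and 1.69 CPM with shRNA-4058. It was the lowest of the 10 in counts, with 38 to 206 reads per Jurkat library. In HSB-2, EGR2 was at 15.8 and 14.8 CPM in wild-type, 1.75 and 1.67 CPM in scrambled, 22.1 and 22.1 CPM with shRNA-4057 and 26.8 and 27.7 CPM with shRNA-4058. Its scrambled HSB-2 libraries lay below the scrambled Jurkat pair and above the wild-type Jurkat pair. In Jurkat, EGR3 was at 0.890 and 0.755 CPM in wild-type, 4.28 and 3.73 CPM in scrambled, 3.63 and 3.57 CPM with shRNA-4057 and 5.77 and 5.92 CPM with shRNA-4058. The 2 hairpins lay on either side of the scrambled cells. In HSB-2, EGR3 was at 15.9 and 15.9 CPM in wild-type, 2.38 and 2.44 CPM in scrambled, 25.0 and 25.4 CPM with shRNA-4057 and 26.4 and 28.4 CPM with shRNA-4058, above both controls in all shRNA libraries.

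NR4A1 (ENSG00000123358.15, GRCh37 chr12:52416616-52453291, plus strand) encodes an orphan nuclear receptor that is widely used as a readout of antigen-receptor signalling, and the antisense RNA NR4A1AS overlaps it. In Jurkat, NR4A1 was at 9.51 and 9.44 CPM in wild-type, 16.5 and 17.4 CPM in scrambled, 13.2 and 14.2 CPM with shRNA-4057 and 15.9 and 17.4 CPM with shRNA-4058. Hairpin shRNA-4058 overlapped the scrambled cells and shRNA-4057 did not. In HSB-2, NR4A1 was at 22.7 and 22.6 CPM in wild-type, 6.54 and 7.11 CPM in scrambled, 40.3 and 40.0 CPM with shRNA-4057 and 39.0 and 40.2 CPM with shRNA-4058. It was the only member of the 10 whose scrambled HSB-2 cells were below all 4 Jurkat groups.

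DUSP2 (ENSG00000158050.4, GRCh37 chr2:96808908-96811179, minus strand) encodes a nuclear phosphatase that inactivates MAP kinases. In Jurkat, DUSP2 was at 20.4 and 23.1 CPM in wild-type, 39.9 and 39.4 CPM in scrambled, 40.5 and 38.6 CPM with shRNA-4057 and 46.9 and 48.8 CPM with shRNA-4058. Hairpin shRNA-4057 overlapped the scrambled cells and shRNA-4058 was above them. In HSB-2, DUSP2 was at 84.3 and 84.8 CPM in wild-type, 39.7 and 41.0 CPM in scrambled, 136 and 128 CPM with shRNA-4057 and 147 and 155 CPM with shRNA-4058. Scrambled cells of the 2 lines overlapped each other, and the other HSB-2 groups were above all Jurkat groups.

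Levels of different genes were compared per kilobase of exon. EGR1 ranked first of the 10 in 7 of the 8 groups, from 14.8 CPM per kilobase in wild-type Jurkat to 371 CPM per kilobase in HSB-2 with shRNA-4058, and JUNB ranked first in scrambled HSB-2, at 56.1 CPM per kilobase against 49.4 for EGR1. CD69 ranked between the third and the fifth in each group, at 7.02 CPM per kilobase in Jurkat with shRNA-4058 and 48.0 CPM per kilobase in HSB-2 with the same hairpin. FOSB and EGR2 held the last place in 7 of the 8 groups. In composition CD69 stood apart from the other 9, with 37.6% G and C as the mean over its annotated transcripts, against 52.8% in EGR2 to 64.9% in JUNB.

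A pair of patterns recurred across the 10 genes. The 2 scrambled HSB-2 libraries were below the 6 other HSB-2 libraries in 10 of 10 genes, against 17.8% of 23063 genes tested. The 2 wild-type Jurkat libraries were below the 6 other Jurkat libraries in 7 of 10, the exceptions being CD69, FOSB and JUN, against 4.32% of all genes. The genes were chosen with both controls in view, so neither pattern is independent of the choice for any of the 10, and nothing is read from these counts.

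The differences of USP7 shRNA from each control are a description for these genes, with no test. The log2 differences from scrambled HSB-2 ran from 1.20 ± 0.11 (SE) in JUNB, over 1.72 in JUN, 1.81 in DUSP2, 2.55 in NR4A1, 2.63 in FOSB, 2.80 in EGR1, 3.45 in EGR3 and 3.66 in FOS, to 3.85 ± 0.13 in EGR2. Those from wild-type HSB-2 were narrower, from -0.49 ± 0.12 in FOSB to 0.81 ± 0.05 in NR4A1. In Jurkat, among the 9 genes other than CD69, the differences from wild-type cells ran from 0.40 ± 0.11 in JUNB to 2.55 ± 0.30 in EGR3, with EGR1 at 1.30, FOS at 1.63 and EGR2 at 1.72, and those from scrambled cells ran from -0.69 ± 0.14 in EGR1 to 1.15 ± 0.30 in FOS. Of the latter, those of JUNB (-0.22), EGR2 (-0.25) and NR4A1 (-0.13) turned to 0.03, 0.00394 and 0.12 when libraries were scaled by their totals alone, a scaling that moved the median of all genes to 0.27 in this comparison. The size thus differed with the control in both lines, with the median of the 10 genes at 0.02 from scrambled and 0.93 from wild-type in Jurkat, and at 2.59 and 0.69 in HSB-2 (median of all genes between -0.02 and 0.02).

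**Figure D2:**
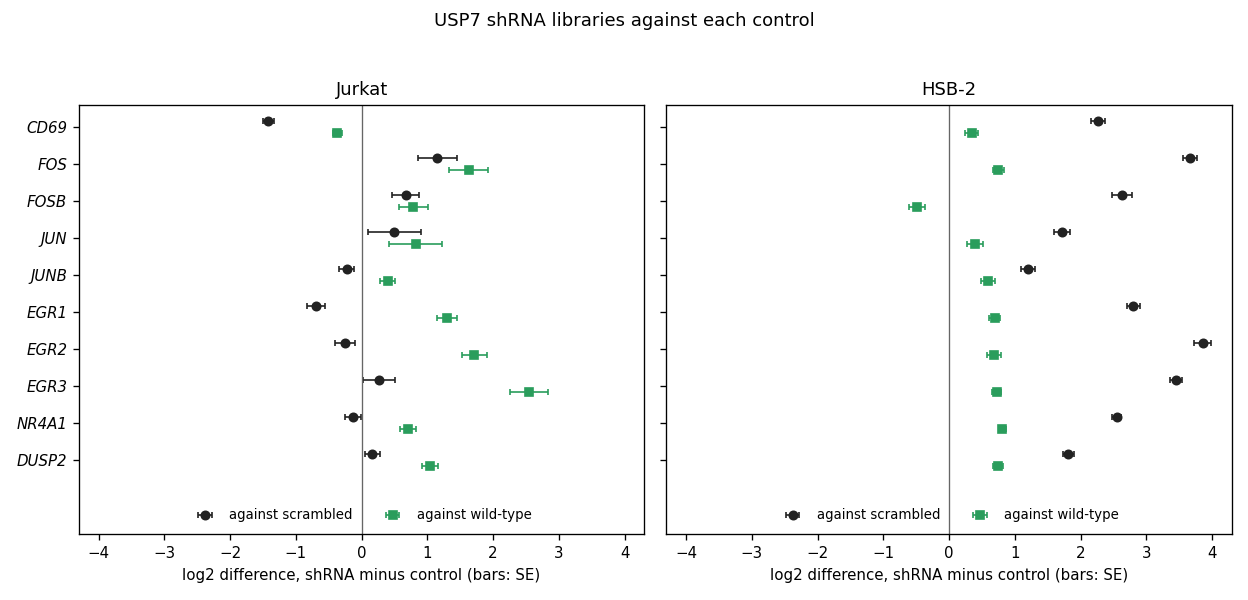
Log2 difference of 4 USP7 shRNA libraries from the 2 scrambled (circles) or the 2 wild-type (squares) libraries of the same line, with bars for the SE. In HSB-2 each circle lies to the right of its square, and in Jurkat to the left, with CD69 at -1.42 and -0.37.

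The contrast of the 2 hairpins holds no control library. The genes were chosen with earlier results of these data known, so this contrast may still depend on that choice. Whether the 2 hairpins gave the same levels was tested with edgeR's quasi-likelihood test over 23063 genes, at a Benjamini-Hochberg adjusted p under 0.05. In Jurkat, 4 of 10 genes were higher with shRNA-4057 than with shRNA-4058 (17.7% of all genes were), and these were the 4 AP-1 genes. JUN was higher by 1.25 ± 0.06 (log2, SE, adjusted p = 2.99e-14), FOS by 0.82 ± 0.08 (adjusted p = 7.01e-09), FOSB by 0.51 ± 0.10 (adjusted p = 0.000318) and JUNB by 0.28 ± 0.06 (adjusted p = 0.000772). Another 4 were lower with shRNA-4057 (16.2% of all genes were), namely EGR3 at -0.70 ± 0.08 (adjusted p = 4.16e-07), EGR1 at -0.41 ± 0.04 (adjusted p = 1.18e-08), and NR4A1 and DUSP2, both at -0.28. CD69 differed by 0.03 ± 0.07 (adjusted p = 0.814) and EGR2 by -0.10 ± 0.12 (adjusted p = 0.561), which did not pass the test. With an offset for GC content and length JUNB lost its call, at 0.09 (adjusted p = 0.0697), and CD69 was higher with shRNA-4057 by 0.18.

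In HSB-2, 8 of the 10 genes were lower with shRNA-4057 than with shRNA-4058 (14.3% of all genes were) and 0 higher (10.5%). With libraries scaled by their totals alone the members' 8 lower calls stood, while the share of all calls that were higher went from 42.3% to 55.3%. The differences that passed the test ran from -0.19 ± 0.05 in DUSP2 (adjusted p = 0.00475) to -0.38 ± 0.08 in FOSB (adjusted p = 0.00134), with CD69 at -0.27 ± 0.06 (adjusted p = 0.00108). EGR3 at -0.12 ± 0.07 (adjusted p = 0.225) and NR4A1 at 0.02 ± 0.06 (adjusted p = 0.850) did not pass. Under the same GC and length offset the calls of FOS (-0.09, adjusted p = 0.101) and DUSP2 (-0.07, adjusted p = 0.151) were lost and NR4A1 was higher with shRNA-4057 by 0.13, and without replicate 2 of shRNA-4057 DUSP2 was at -0.15 (adjusted p = 0.103). Whether the contrast of the hairpins differed between the lines, or followed the level of USP7, was not tested.

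The 2 controls were compared in the same fit for the 9 genes other than CD69. The scrambled libraries also entered the contrasts known when the genes were chosen, so these differences are a description and nothing is read from their counts. In Jurkat, 8 of 9 were past the threshold of the fit (adjusted p under 0.05) and higher in scrambled than in wild-type cells (14.8% of all genes were) and 0 lower (11%). The 3 EGR genes had the largest differences of the 9, at 2.27 ± 0.12 in EGR3, 1.98 ± 0.04 in EGR1 and 1.95 ± 0.15 in EGR2. DUSP2 and NR4A1 were higher by 0.87 and 0.84, JUNB by 0.62, FOS by 0.47 and JUN by 0.32, and FOSB was at 0.12 ± 0.12. Scaled by library totals alone, JUN was at 0.16 and 7 of 9 were past the threshold, while the share of all calls that were higher went from 57.3% to 18.0% and the median of all genes to -0.16.

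In HSB-2 the same comparison went the other way in 9 of 9 genes (17.9% of all genes were lower in scrambled cells, and 16.1% higher). EGR2 was lower by 3.16 ± 0.09 on the log2 scale, a level 0.112 times that of wild-type cells. FOSB was at -3.11 ± 0.09, FOS at -2.90 ± 0.06, EGR3 at -2.72 ± 0.08 and EGR1 at -2.10 ± 0.04. NR4A1, JUN, DUSP2 and JUNB followed at -1.73, -1.32, -1.07 and -0.60. By library totals alone 9 of 9 were again lower, with 47.4% and 57.4% of all calls higher. CD69, given as a description, was at -1.91 ± 0.06 in HSB-2 and at 1.05 ± 0.06 in Jurkat. The difference between the lines, HSB-2 minus Jurkat, was computed after these values had been seen and is a description too. It was lower in 9 of 9 genes (16.4% of all genes were lower and 12% higher), from -1.21 ± 0.08 in JUNB to -5.11 ± 0.17 in EGR2. Wild-type cells carried no construct that the labels name, so transduction, selection and the scrambled sequence cannot be told apart in this comparison, and the labels give no culture date or density.

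**Figure D3:**
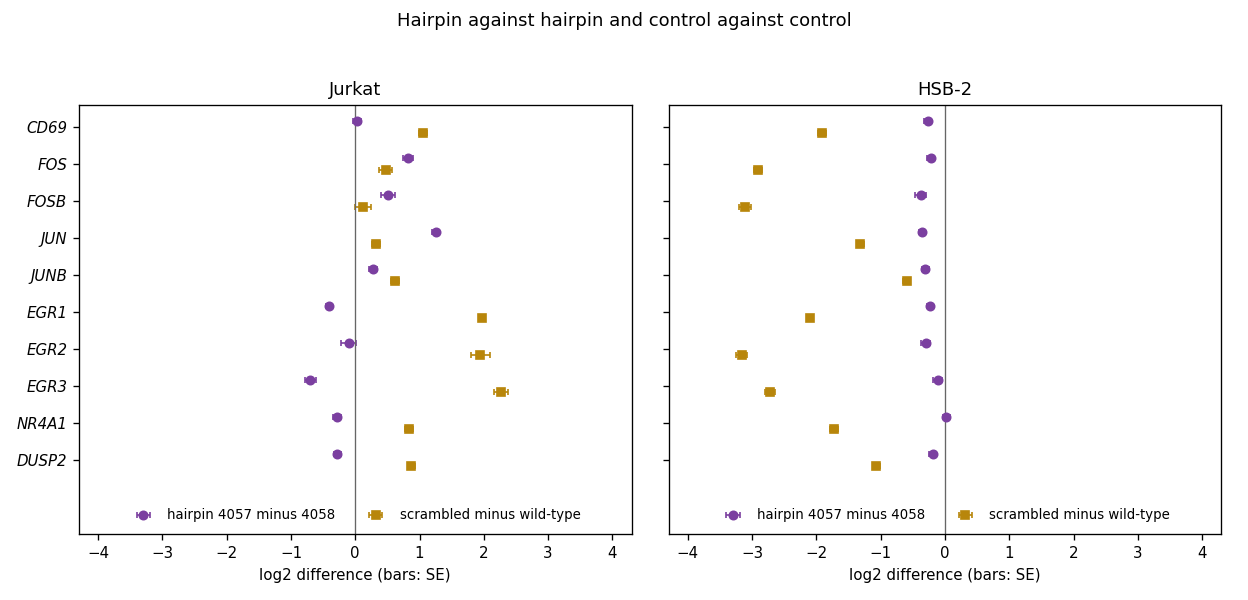
Log2 difference between the hairpins (circles, shRNA-4057 minus shRNA-4058) and between the controls (squares, scrambled minus wild-type), with bars for the SE, 2 against 2 libraries. Squares lie right of 0 in Jurkat and left of 0 in HSB-2 for all 10 genes. Circles span 0 in Jurkat, from -0.70 in EGR3 to 1.25 in JUN.

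Genes around the same pathway were tested in 5 lists, 86 genes in all, from the kinases above the immediate early genes to the inhibitors and surface proteins below them. The lists were chosen with earlier results of these data known, so their p-values may not be independent of that choice. Against scrambled Jurkat, 10 of 75 tested genes rose and 16 fell, beside 12.4% of all genes tested that were called higher and 15.7% lower. With libraries scaled by their totals alone the split became 27 and 10, and over all genes the share of calls that were higher went from 44.1% to 81.2%. Against wild-type Jurkat, 9 of 76 rose and 7 fell, beside 3.1% and 5.31% of all genes (14 and 6 by library totals, with 36.9% and 64.6% of all calls higher). Against scrambled HSB-2, 54 of 78 rose and 5 fell, beside 20.3% and 17.8% of all genes (44 and 8 by library totals, with 53.2% and 32.5% of all calls higher), and against wild-type HSB-2, 32 of 79 rose and 3 fell, beside 13.3% and 11.8% (28 and 8 by library totals, with 52.9% and 34.1% of all calls higher). The median log2 difference of the lists from scrambled was 0.02 in Jurkat and 0.43 in HSB-2, with the median of all genes at 0.02 and -0.02. Between the lines 40 of 79 genes had a higher and 6 a lower difference in HSB-2, beside 20.6% and 17.1% of all genes (30 and 18 by library totals, with 54.7% and 20.1% of all calls higher), a scaling that moved the median of all genes to -0.43. These shares of all genes apply to the counts of each list below, the total against scrambled Jurkat is not far from them, and no list was tested against other genes. When either scrambled Jurkat library was left out the count against scrambled Jurkat went from 26 to 12, and when either wild-type Jurkat library was left out the count against wild-type Jurkat went from 16 to 0 with edgeR, with 19 and 22 of the list at an unadjusted p under 0.05, and over all genes from 1798 to 0, with 3350 and 3205 at an unadjusted p under 0.05. Without wild-type HSB-2 replicate 1 or 2, the count of 35 against wild-type HSB-2 went to 15 and 13. No difference from wild-type Jurkat named in the following paragraphs was called without either wild-type library. List genes called lower in scrambled than in wild-type HSB-2 numbered 56 of 80, and higher 9 (17.9% and 16.1% of all genes). In Jurkat 17 were lower and 27 higher (11% and 14.8%). The part of these differences in the counts against scrambled was not tested. Of the genes named below as risen against scrambled HSB-2, MAPK3, IER3, SPRY2, DUSP5, CD44 and XCL1 were not called against wild-type HSB-2.

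**Figure D4:**
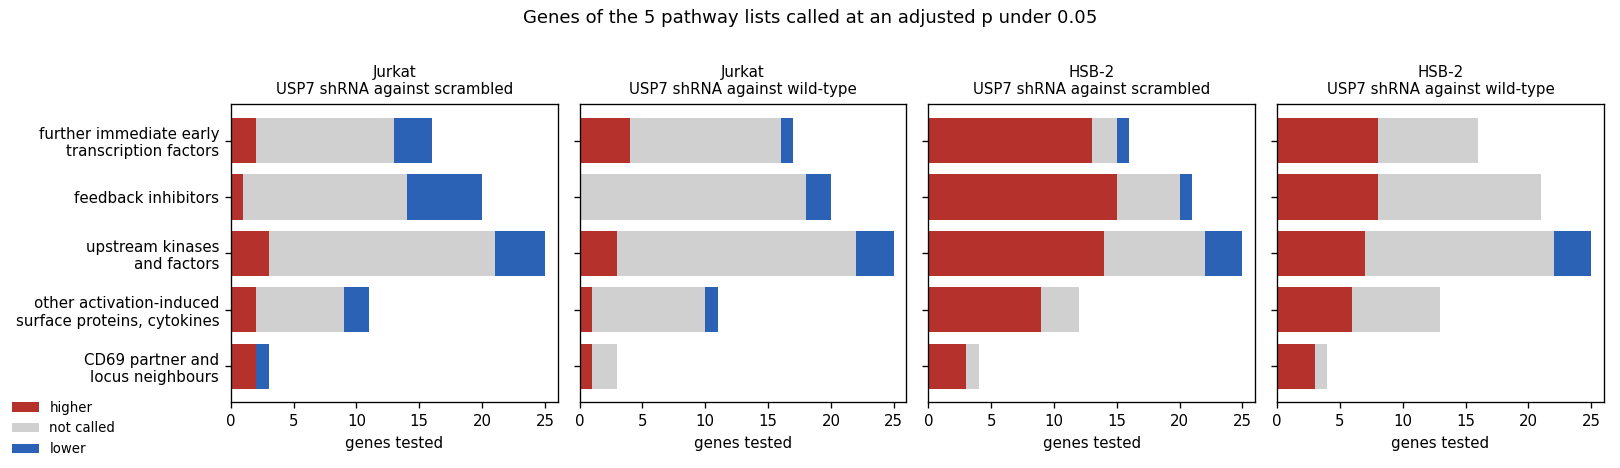
Genes of each list tested with edgeR, as counts called higher, not called and called lower in USP7 shRNA cells at an adjusted p under 0.05. In HSB-2 against scrambled, higher calls make up 54 of 78, and in Jurkat 10 of 75.

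Of 25 upstream kinases and factors, 14 rose and 3 fell against scrambled HSB-2 (20.3% and 17.8% of all genes did). Against scrambled Jurkat 3 rose and 4 fell, near the shares of all genes (12.4% and 15.7%). MAPK3, the kinase ERK1, fell by 0.78 ± 0.07 (log2, SE, adjusted p = 0.000480) in Jurkat, from 121 and 124 CPM at the 2 scrambled libraries to between 64.2 and 74.2 CPM, and NFATC1, a factor activated by calcineurin, fell by 0.55 ± 0.06 (adjusted p = 0.000702). Both also fell against wild-type Jurkat, by 0.53 and 0.32. In HSB-2 both rose against scrambled, NFATC1 by 0.52 ± 0.06 (adjusted p = 0.000204) and MAPK3 by 0.47 ± 0.15 (adjusted p = 0.0389), and the call of MAPK3 was lost without scrambled replicate 1 or 2 or shRNA-4058 replicate 1 (adjusted p = 0.0739 to 0.239) and by library totals, with the GC and length offset, with the replicate block and with both controls together (adjusted p = 0.0618 to 0.0982). With the block NFATC1 against wild-type Jurkat was at an adjusted p of 0.0711. PRKCQ, the protein kinase C of the T-cell receptor synapse, rose by 0.66 ± 0.05 (adjusted p = 2.29e-05) and PRKCA by 0.51 ± 0.08 (adjusted p = 0.00108) against scrambled HSB-2, and both rose against wild-type HSB-2, by 0.35 and 0.34, the latter lost without either wild-type library (adjusted p = 0.111 to 0.144) and by library totals (adjusted p = 0.0669). In Jurkat PRKCQ was at 0.04 and PRKCA at 0.01 against scrambled, which did not pass the test. ELK3, a ternary complex factor, rose by 0.54 ± 0.17 in Jurkat (adjusted p = 0.0466), and this call was lost without either scrambled or either shRNA-4057 library (adjusted p = 0.0695 to 0.257), with the block and with both controls together (adjusted p = 0.0545 to 0.0789).

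Of 17 further immediate early transcription factors, 13 of 16 tested rose and 1, MYC, fell against scrambled HSB-2 (20.3% and 17.8% of all genes did). Against scrambled Jurkat 2 rose and 3 fell of 16 tested (12.4% and 15.7% of all genes). KLF2, which keeps T cells quiescent and drives S1PR1, rose in both lines. In Jurkat it was between 51.1 and 60.3 CPM with the hairpins, 12.6 and 12.7 CPM in scrambled and 33.2 and 38.0 CPM in wild-type, a difference of 2.13 ± 0.09 from scrambled (adjusted p = 6.05e-05). In HSB-2 KLF2 was between 11.3 and 19.7 CPM with the hairpins, 2.59 and 2.87 CPM in scrambled and 5.40 and 6.25 CPM in wild-type, a difference of 2.47 ± 0.26 from scrambled (adjusted p = 0.000125). The difference between the lines, 0.37 ± 0.27, did not pass the test (adjusted p = 0.317). EGR4 was at most at 0.281 CPM in Jurkat, or 33 reads, and rose by 3.26 ± 0.31 against scrambled HSB-2 (adjusted p = 6.74e-05). NR4A3, a relative of NR4A1, rose by 1.90 ± 0.16 there (adjusted p = 4.01e-05) and was at -0.69 ± 0.30 in Jurkat (adjusted p = 0.125). ATF3, a stress-induced factor, fell by 0.82 ± 0.11 against scrambled Jurkat (adjusted p = 0.00178), and IER3 fell by 1.17 ± 0.23 (adjusted p = 0.00879), a call lost without either scrambled library (adjusted p = 0.0602 to 0.0790). In HSB-2 IER3 rose by 0.37 ± 0.13 (adjusted p = 0.0464), a call lost without either scrambled or either shRNA-4058 library (adjusted p = 0.0710 to 0.268), and by library totals, the GC and length offset, the block and both controls together (adjusted p = 0.0787 to 0.232).

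Of 21 feedback inhibitors, 15 rose and 1 fell against scrambled HSB-2 (20.3% and 17.8% of all genes did). Against scrambled Jurkat 1 of 20 tested rose and 6 fell (12.4% and 15.7% of all genes). TNFAIP3, which ends NF-kB signalling, was between 52.2 and 58.4 CPM in shRNA Jurkat, 160 and 164 CPM in scrambled and 99.2 and 99.6 CPM in wild-type. Its log2 difference was -1.50 ± 0.06 against scrambled (adjusted p = 6.05e-05) and -0.79 against wild-type, lower in both. In HSB-2 TNFAIP3 rose by 0.95 ± 0.06 against scrambled (adjusted p = 4.41e-06), and its difference between the lines was 2.48 ± 0.09 (adjusted p = 5.84e-09). The Sprouty genes SPRY2 and SPRY1, inhibitors of RAS signalling, fell by 1.40 ± 0.13 and 1.12 ± 0.17 against scrambled Jurkat (adjusted p = 0.000510 and 0.00316). SPRY1 fell against scrambled HSB-2 by 0.28 ± 0.05 (adjusted p = 0.00363) but rose against wild-type HSB-2 by 0.38 ± 0.06 (adjusted p = 0.00238), while SPRY2 rose against scrambled HSB-2 by 0.28 ± 0.06 (adjusted p = 0.00454). Without scrambled HSB-2 replicate 1 the adjusted p of SPRY2 was 0.0662 (0.0684 to 0.111 by library totals and with both controls together), and without wild-type HSB-2 replicate 1 that of SPRY1 was 0.0539. The MAP kinase phosphatases DUSP4 and DUSP5 rose by 2.52 ± 0.08 and 1.85 ± 0.16 against scrambled HSB-2 (adjusted p = 2.44e-07 and 3.86e-05), and with both controls together the adjusted p of DUSP5 was 0.0674 and that of SPRY1 0.971. RGS1, a regulator of G-protein signalling, rose by 3.81 ± 0.30 there (adjusted p = 2.40e-05), from 33 and 34 reads to at least 152, and was at 0 reads in all 8 Jurkat libraries, which allows a level of up to 0.0272 to 0.0345 CPM (3 reads, counting error only).

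Of 17 other activation-induced surface proteins and cytokines, 9 of 12 tested rose and 0 fell against scrambled HSB-2 (20.3% and 17.8% of all genes did). Against scrambled Jurkat 2 of 11 rose and 2 fell (12.4% and 15.7% of all genes). CD40LG, the ligand by which helper T cells stimulate B cells, rose in both lines against both controls. In Jurkat it was between 33.3 and 36.3 CPM with the hairpins, 15.3 and 15.5 CPM in scrambled and 18.4 and 20.2 CPM in wild-type (1.20 ± 0.07 against scrambled, adjusted p = 0.000125). In HSB-2 CD40LG was between 3.06 and 3.50 CPM with the hairpins, 0.267 and 0.273 CPM in scrambled and 0.852 and 0.960 CPM in wild-type, a difference of 3.63 ± 0.17 from scrambled (adjusted p = 1.55e-06). IL2RA, the high-affinity chain of the interleukin-2 receptor and a later activation marker than CD69, fell by 1.59 ± 0.22 against scrambled Jurkat (adjusted p = 0.00230) and rose by 1.22 ± 0.23 against scrambled HSB-2 (adjusted p = 0.00300), where the adjusted p was 0.0535 without scrambled replicate 1. TNF was abundant in HSB-2, at 85.1 and 87.0 CPM in scrambled, 174 and 175 CPM in wild-type and 233 to 343 CPM with the hairpins (1.72 ± 0.16, adjusted p = 7.23e-05), and at most at 0.544 CPM in Jurkat. ICOS, a costimulatory receptor, fell by 1.32 ± 0.38 against scrambled Jurkat (adjusted p = 0.0375), a call lost without either scrambled library or shRNA-4057 replicate 2 (adjusted p = 0.0749 to 0.208), by library totals and with the block (adjusted p = 0.0572 to 0.0611). CD44, an adhesion receptor, was at 6 to 64 reads per Jurkat library and rose there by 2.55 ± 0.41 (adjusted p = 0.00433, and 0.0512 without scrambled replicate 1), and it rose by 0.33 ± 0.09 against scrambled HSB-2 (adjusted p = 0.0161, 0.0929 to 0.122 without either scrambled library, and 0.0835 to 0.411 by library totals and with both controls together). XCL1, a chemokine, had at most 38 reads in HSB-2 and was called higher against scrambled, at 1.82 ± 0.54 (adjusted p = 0.0260), but without either scrambled library or shRNA-4058 replicate 1 it was not (adjusted p = 0.0546 to 0.197), nor with no filter or both controls together (adjusted p = 0.0502 to 0.801).

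The last list held S1PR1, the receptor that CD69 removes from the cell surface, and 5 C-type lectin genes near CD69. S1PR1 rose in both lines, by 2.61 ± 0.20 in Jurkat (adjusted p = 0.000256) and 1.42 ± 0.07 in HSB-2 (adjusted p = 1.45e-06) against scrambled. It was between 68.0 and 101 CPM in shRNA Jurkat, 13.9 and 14.5 CPM in scrambled and 38.0 and 41.1 CPM in wild-type, so that in Jurkat S1PR1 was high in the groups where CD69 was low. In HSB-2 S1PR1 was between 25.7 and 27.1 CPM with the hairpins, 9.65 and 10.01 CPM in scrambled and 18.9 and 18.9 CPM in wild-type, and there it was lowest in scrambled cells, higher in wild-type and highest with the hairpins, as CD69 was. The neighbour CLEC2B fell by 0.60 ± 0.17 against scrambled Jurkat (adjusted p = 0.0353, 0.0525 to 0.233 without either scrambled or either shRNA-4058 library, and 0.0668 to 0.14 by library totals, with the block and with both controls together). In HSB-2 CLEC2B rose by 2.43 ± 0.15 against scrambled (adjusted p = 7.72e-06). CLEC2D rose by 0.59 ± 0.18 against scrambled Jurkat (adjusted p = 0.0450), a call lost without either scrambled library, either shRNA-4058 library or shRNA-4057 replicate 2 (adjusted p = 0.0639 to 0.305) and with the block (adjusted p = 0.0747), and was at 0.40 ± 0.21 in HSB-2 (adjusted p = 0.159). KLRB1, which encodes CD161, rose by 3.27 ± 0.25 against scrambled HSB-2 (adjusted p = 2.01e-05), from 23 and 31 reads to at least 87, and had at most 8 reads in a Jurkat library.

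The genes most like CD69 over the 16 libraries, by Pearson's r of log2 CPM among 14044 genes whose mean reached 1 CPM, were APLN (0.98), which encodes the peptide apelin, ENSG00000184825.4 (0.97), LHFPL1 (0.96), KIFC1 (0.95) and H3C14 (0.95). The 16 points share 2 lines and 8 groups, so these values describe the order of the groups and carry no p. APLN was at 2.60 and 2.89 CPM in scrambled Jurkat against 0.272 to 0.585 CPM with the hairpins, and at 1.33 and 1.37 CPM in scrambled HSB-2 against 11.03 to 18.1 CPM with the hairpins, the same turn between the lines as CD69. Among the other 9 immediate early genes, r to CD69 ran from 0.81 in JUN to 0.92 in EGR1, which stood at rank 66.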

How the data were processed

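Total RNA of 16 libraries was depleted of ribosomal RNA, prepared with a stranded kit and sequenced. Per the methods, the authors mapped the reads with BWA to GRCh37 (hg19 in the submitters' notes). They made the deposited table of raw counts per gene with HTSeq 0.6.1p1. The notes also list BWA, CASAVA and STAR with no role, and the strand setting and annotation release are not given in the sources used here. Genes were tested with edgeR 4.0.16 (R 4.3.3, limma 3.58.1) by its quasi-likelihood test with TMM factors, filterByExpr and Benjamini-Hochberg adjustment over all genes tested, at a threshold of 0.05. SE is the size of the log2 difference over the square root of F. USP7 shRNA was compared with each control in a fit of the 6 libraries of a line (4 against 2), and between the lines in a fit of 12 libraries. In these fits the 2 hairpins formed 1 group, so SE and p also held the difference between hairpins. Against scrambled Jurkat the SE of JUN was 0.40, and 0.06 for shRNA-4057 alone in the fit of 16 libraries. The hairpins and the controls were compared with each other in a fit of all 16 libraries as 8 groups. The script was tested on simulated data. Counts per sample were 76.6 to 235 M, and 3 counts, the limit that a count of 0 allows, were 0.0127 to 0.0392 CPM, for counting error only.

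The 10 genes and the lists were chosen with earlier results of these data known. Named were the 10 genes, USP7, from each list and line up to 3 called genes with the largest change against scrambled whose 4 shRNA libraries all lay on one side of the 2 scrambled ones, the 5 genes most like CD69, and counts of 5 or fewer in full. CCL3 and CCL4 were not matched in the table, and 1 marker gene is not reported here. Alternatives were RLE factors, no filter, DESeq2 1.42.0, each library left out, the replicate number as a block, hairpins as separate groups and both controls together. Scaling by library totals, and an offset for GC content and length, were chosen after seeing the data.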

Additional observations from a re-analysis of the deposited data

Results flagged for a closer look

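Several genes differed between the lines. Of the 10 genes, CD69 was lower in all 4 Jurkat shRNA libraries and higher in all 4 HSB-2 shRNA libraries than the scrambled control. Its HSB-2 minus Jurkat log2 difference, taken between the separate fits of the lines, was 3.68 against scrambled and 0.71 against wild-type. EGR1 (3.49) and EGR2 (4.11) were likewise on opposite sides of scrambled, and FOSB (-1.28) of wild-type. For EGR2 the Jurkat side was small, at -0.25 ± 0.15 from scrambled, and did not hold by library totals, as given above. The difference between the lines was not tested for these genes here and is given as a description, since it was part of how they were chosen.

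The difference of scrambled from wild-type was also of opposite sign in the 2 lines in the other 9 genes. In Jurkat that of FOSB was 0.12 ± 0.12, not past the threshold. HSB-2 minus Jurkat, the differences were -5.11 in EGR2, -4.99 in EGR3, -4.08 in EGR1, -3.38 in FOS, -3.23 in FOSB, -2.57 in NR4A1, -1.94 in DUSP2, -1.64 in JUN and -1.21 in JUNB. These 9 values were past the threshold of the all-gene fit, but the scrambled libraries were part of how the genes were chosen, so they are a description.

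In the pathway lists the difference between the lines against scrambled, HSB-2 minus Jurkat, passed the test in 21 named genes. It was 3.14 in DUSP4, 3.05 in CLEC2B, 2.84 in IL2RA, 2.78 in EGR4, 2.62 in NR4A3, 2.48 in TNFAIP3, 2.46 in CD40LG and 2.46 in KLRB1. It was 1.86 in TNF, 1.77 in DUSP5, 1.70 in SPRY2, 1.57 in IER3, 1.44 in ICOS, 1.27 in MAPK3, 1.16 in ATF3 and 1.10 in NFATC1. It was 0.86 in SPRY1, 0.64 in PRKCQ and 0.53 in PRKCA, and with libraries scaled by their totals alone these 3 calls were lost, at 0.43 (edgeR adjusted p = 0.0779), 0.22 (adjusted p = 0.159) and 0.11 (adjusted p = 0.519). It was lower in HSB-2 for CD44 (-2.19) and S1PR1 (-1.16). The call of ICOS was lost without scrambled Jurkat replicate 2 (adjusted p = 0.0512), and that of KLRB1, with at most 8 reads in a Jurkat library, without either scrambled Jurkat library or scrambled HSB-2 replicate 2 (adjusted p = 0.0613 to 0.213). Scrambled minus wild-type, compared as HSB-2 minus Jurkat, was called lower in 44 of 80 list genes and higher in 8. Over all genes 16.4% were lower and 12% higher. Of the 21 genes, IL2RA, KLRB1, ICOS, PRKCQ, PRKCA and CD44 were in neither set, S1PR1 was in the higher and the rest in the lower. The part of the scrambled control in the 21 differences was not tested.

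Among the 4 shRNA libraries of Jurkat, 1 stood apart for TNF, with a gap of 0.931 of the range against Dixon's 95% critical value, which it passed. It held 56 reads of TNF, and the others 32 to 36. Chance flags about 1 in 20 groups.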

How the results depend on the processing

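Treating the hairpins as separate groups gave 53 calls in the pathway lists in place of 26 against scrambled Jurkat, 54 in place of 16 against wild-type Jurkat and 58 in place of 35 against wild-type HSB-2. Over all genes that setting gave 11837 in place of 5965, 8570 in place of 1798 and 9490 in place of 5010 calls, and 12077 in place of 8049 against scrambled HSB-2, and DESeq2 gave 3058 in place of 1798 against wild-type Jurkat. Leaving out 1 library gave 12 to 27 calls against scrambled Jurkat, 0 to 17 against wild-type Jurkat, 13 to 40 against wild-type HSB-2, 43 to 61 against scrambled HSB-2 (59 with all libraries) and 40 to 49 between the lines (46). Against wild-type Jurkat, 9 were called without shRNA-4057 replicate 2. For the members it gave 8 in Jurkat and 7 to 8 in HSB-2 between the hairpins, and 8 in Jurkat and 9 in HSB-2 between the controls. The numbers 1 and 2 of the libraries did not pair them, since the correlation of same-numbered deviations was -0.05 to 0.05 over 28 pairs of groups. With the replicate number as a block the calls in the lists were 19 and 8 against scrambled and wild-type Jurkat, 54 and 32 in HSB-2 and 46 between the lines, the members' counts were 8, 8, 8 and 9 as before, and 451 genes in place of 1798 were called against wild-type Jurkat. With scrambled and wild-type together as 1 control, SPRY1 in HSB-2 was at 0.00927 in place of -0.28 and XCL1 at -0.27 in place of 1.82. The causes were not tested. RLE factors, DESeq2, no filter, library totals and the GC and length offset left all 9 counts of calls within 1.5 times. Depth limited EGR2 and EGR3 in wild-type Jurkat (38 to 104 reads) and CD44, EGR4, TNF, XCL1 and KLRB1 in Jurkat.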
